A study of Mus musculus with 12 samples.

Results

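Lysosomal enzymes and membrane proteins of the mouse spinal cord were examined as 38 genes named by symbol: 10 cysteine proteases, 4 other proteases, 9 glycosidases, 6 lipid hydrolases and activator proteins, and 9 proteins of the lysosomal membrane or closely tied to it. A gene was followed through the exon array probesets that name it and no other gene, and its level was the mean log2 intensity over those probesets. Cd63 was not analysed here, and the other 37 genes were measured by 482 probesets (4 to 27 each, median 12), among 15808 genes in all. The 12 mice were C57/BL6 and each gave 1 array, with 3 mice in each of 4 groups. Injured EphA4 knockout mice (10 weeks old) and injured wild-type mice (10 to 14.5 weeks) had a hemisection of the left lumbar cord under laminae removed at T13-L1. Sham-operated EphA4 knockout mice (9 to 12 weeks) and sham-operated wild-type mice (10 weeks) had the laminectomy alone. The knockout is constitutive, so that EphA4, a receptor tyrosine kinase of axon guidance, is missing from every cell type and throughout development. Every group had 2 mice labelled male and 1 labelled female. At 4 days after surgery 6 mm of cord around the lesion, or the matching stretch, was taken from the left side, called injured in the study's methods and uninjured in the labels.

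Lysosomes are acidic compartments in which proteases, glycosidases and lipases break down material taken up from outside the cell or delivered by autophagy. In an injured cord the main consumers of debris are microglia and macrophages that enter from the blood, and these phagocytes carry many lysosomes. The membrane holds the proton pump, ion channels and heavily glycosylated proteins such as Lamp1 and Lamp2, and many lysosomal genes are bound by the transcription factor Tfeb at a short sequence called the CLEAR element.

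The deposited log2 values had column medians of 5.79 to 5.85, and arrays of 1 group correlated at 0.985 to 0.992 across genes. Epha4 itself stood at 4.82 to 5.10 in injured EphA4 knockout and 5.87 to 6.25 in injured wild-type cords, and at 5.15 to 5.19 in sham-operated EphA4 knockout and 6.52 to 6.81 in sham-operated wild-type cords. The labelled tissue carried its markers, with neuron markers at a mean of 9.47 to 10.01 and oligodendrocyte markers at 10.08 to 10.47 in every array. A few arrays stood apart. Skeletal muscle markers averaged 5.78 in injured wild-type replicate 1 and 4.12 to 4.52 in the other arrays. Injured EphA4 knockout replicate 2 had a narrower spread of probesets (interquartile range 3.28, against 3.45 to 3.63 elsewhere). Sham-operated EphA4 knockout replicate 1 was the only array of its extraction batch and had the highest neutrophil markers (6.27, with 4.68 to 5.99 elsewhere). Replicate 2 of that group, labelled male, had Eif2s3y, a gene of the Y chromosome, at 3.26, within 3.21 to 3.50 of the mice labelled female and below 7.21 to 8.15 of the other males.

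Promoter sequences of 4 lysosomal genes are shown because they set genes that hold the CLEAR element next to the genes with the steepest increases after injury. RefSeq windows of GRCm38.p6, reaching from 250 bases before a transcript start to 50 bases after it, were matched for 32 of the genes (35 windows, 31 genes measured). The 250 bases before the start of Ctsd (cathepsin D; chr7:142387828-142388077, minus strand), Mcoln1 (the calcium channel mucolipin 1; chr8:3500269-3500518, plus strand), Gpnmb (a transmembrane glycoprotein of phagocytes; chr6:49036268-49036517, plus strand) and Cd68 (macrosialin; chr11:69666171-69666420, minus strand) read 5′ to 3′ as follows. Capitals mark TCACGTG, the core of the CLEAR element, in Ctsd and Mcoln1 and TGACTCA, the AP-1 site, in Cd68, on either strand, and overlapping matches of the CLEAR core on opposite strands run together.
Ctsd: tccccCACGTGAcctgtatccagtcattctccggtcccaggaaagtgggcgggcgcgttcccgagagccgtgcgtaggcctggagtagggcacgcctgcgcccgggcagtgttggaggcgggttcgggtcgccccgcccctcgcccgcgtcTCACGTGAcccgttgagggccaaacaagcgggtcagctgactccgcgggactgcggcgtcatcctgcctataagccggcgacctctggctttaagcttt
Mcoln1: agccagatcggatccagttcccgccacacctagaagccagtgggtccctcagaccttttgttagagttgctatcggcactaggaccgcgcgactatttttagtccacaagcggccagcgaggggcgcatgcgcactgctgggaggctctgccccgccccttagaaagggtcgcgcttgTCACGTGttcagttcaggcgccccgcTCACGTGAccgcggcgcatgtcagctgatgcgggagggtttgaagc
Gpnmb: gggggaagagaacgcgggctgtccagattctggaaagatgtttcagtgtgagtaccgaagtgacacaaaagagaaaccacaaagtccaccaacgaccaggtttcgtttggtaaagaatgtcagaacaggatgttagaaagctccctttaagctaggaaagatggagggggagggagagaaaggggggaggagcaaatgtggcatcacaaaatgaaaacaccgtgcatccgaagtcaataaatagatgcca
Cd68: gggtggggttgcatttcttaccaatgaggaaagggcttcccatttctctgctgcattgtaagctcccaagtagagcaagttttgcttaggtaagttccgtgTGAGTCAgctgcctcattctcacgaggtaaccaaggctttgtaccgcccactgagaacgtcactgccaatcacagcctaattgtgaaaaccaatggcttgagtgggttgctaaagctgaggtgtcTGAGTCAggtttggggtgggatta

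The CLEAR core lay in 9 of the 35 lysosomal windows (25.7%) and in 3.77% of the 32851 windows of all genes. The 9 genes were Ctsa, Ctsd, Gaa, Gla, Glb1, Lamp1, Lgmn, Mcoln1 and Naglu. GAGGAAGT, a site of the myeloid factor PU.1 searched on both strands, lay in 11.4% of the lysosomal windows (Ctsc, Ctss, Gla and Gusb) and in 3.2% of all windows. The AP-1 site lay in 14.3% (Cd68, Glb1, Gpnmb after its start, Neu1 and Psap) and in 5.2% of all. None of the 3 motifs lay in the 250 bases printed for Gpnmb. A match describes the letters of a window and shows no binding.

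Most of the lysosomal genes were higher in injured than in sham-operated cords of both genotypes. Averaged over the genotypes, 29 of the 37 measured genes rose and 0 fell beside 12.8% of all genes that rose and 17% that fell. A call needed a change of 1.2-fold or more with an adjusted p under 0.05 (limma, Benjamini-Hochberg over all genes). Ctsf, Neu1 and Gaa, 3 genes, were lower with an unadjusted p under 0.05, as were 26% of all genes. The median change was 0.74 on the log2 scale for the lysosomal genes and −0.08 for all genes. The rise was at least 1 on the log2 scale for 15 genes (3.43% of all genes) and at least 2 for 8 (0.917%): Gpnmb, Cd68, Ctsc, Grn, Gusb, Ctsz, Ctsh and Laptm5. For 26 genes every one of the 6 injured arrays lay above every one of the 6 sham-operated arrays, which held for 8.87% of all genes. The mean level of the 37 genes was 8.70 to 8.89 in injured EphA4 knockout and 8.74 to 8.92 in injured wild-type cords, against 7.66 to 7.80 in sham-operated EphA4 knockout and 7.63 to 7.70 in sham-operated wild-type cords. In whole tissue a larger number of cells that carry a transcript and more of it per cell cannot be told apart.

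**Figure D1:**
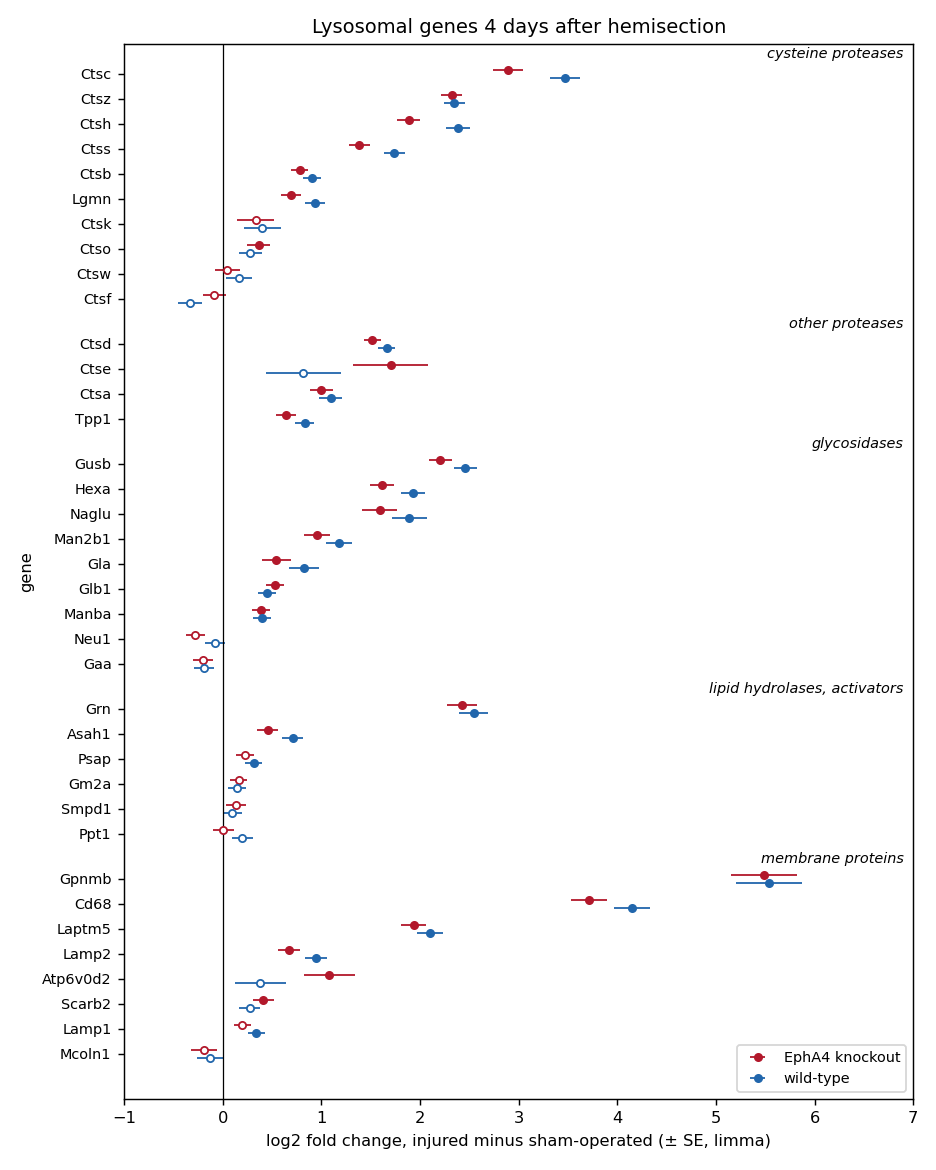
Change of each measured lysosomal gene after injury, as log2 fold change of injured minus sham-operated cords (x axis) with its SE from limma, in EphA4 knockout (red) and wild-type mice (blue), 3 arrays per group, with genes grouped by role on the y axis. Filled points were called (1.2-fold or more with an adjusted p under 0.05) and open points were not; Gpnmb and Cd68 lie farthest to the right in both genotypes, and Neu1, Gaa, Ctsf and Mcoln1 lie to the left of 0.

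Among the cysteine proteases 8 of 10 rose, with a median change of 0.83. Ctsc, the dipeptidase that activates the granule serine proteases of leukocytes, stood at 8.31, 7.97 and 8.33 in injured EphA4 knockout and 8.88, 8.40 and 8.42 in injured wild-type cords, against 5.28, 5.12 and 5.53 in sham-operated EphA4 knockout and 5.09, 5.08 and 5.12 in sham-operated wild-type cords. Ctsz, a carboxypeptidase of microglia and macrophages, stood at 10.06, 10.02 and 9.88 in injured EphA4 knockout and 9.99, 9.86 and 10.21 in injured wild-type cords, against 7.59, 7.76 and 7.65 in sham-operated EphA4 knockout and 7.63, 7.70 and 7.69 in sham-operated wild-type cords. Injured and sham-operated arrays lay far apart for both genes. Ctsc rose by 3.18 (SE 0.11, 9.07-fold, limma adjusted p = 3.1e-10), the 23rd largest rise among all genes, and its 11 probesets rose between 1.55 and 4.28. Ctsz rose by 2.33 (SE 0.08, adjusted p = 2.83e-10). Ctsh, an aminopeptidase, rose by 2.13 (SE 0.08) and Ctss, the protease that trims the invariant chain of MHC class II, by 1.56 (SE 0.08).

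The other cysteine proteases had changes under 1 on the log2 scale. Ctsb rose by 0.84 (SE 0.06) and Lgmn, the asparaginyl endopeptidase that processes other cathepsins, by 0.81 (SE 0.07), and both kept every injured array above every sham-operated one. Ctso rose by 0.32 (SE 0.08) and Ctsk, the collagenase of osteoclasts, by 0.37 (SE 0.13, adjusted p = 0.0495), with overlapping arrays. The call of Ctsk was lost on leaving out any single array except injured EphA4 knockout replicate 2 or injured wild-type replicate 1. Ctsf had a change of −0.21 (SE 0.09, adjusted p = 0.0778). Ctsw, known from natural killer and cytotoxic T cells, stood at 3.55, 3.89 and 3.44 in injured EphA4 knockout and 3.73, 3.51 and 3.67 in injured wild-type cords, against 3.54, 3.45 and 3.75 in sham-operated EphA4 knockout and 3.51, 3.35 and 3.57 in sham-operated wild-type cords. The 4 groups overlapped, its change was 0.11 (SE 0.09, adjusted p = 0.42), and it was the 1 measured lysosomal gene among the dimmest 25% of all genes.

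All 4 of the other proteases rose, with a median change of 1.15. Ctsd, the main aspartic protease of lysosomes, stood at 12.37, 12.26 and 12.27 in injured EphA4 knockout and 12.31, 12.26 and 12.35 in injured wild-type cords, against 10.72, 10.84 and 10.79 in sham-operated EphA4 knockout and 10.62, 10.71 and 10.61 in sham-operated wild-type cords. Tpp1, the tripeptidyl peptidase whose loss causes a neuronal ceroid lipofuscinosis, stood at 9.05, 8.83 and 8.95 in injured EphA4 knockout and 8.99, 8.97 and 9.11 in injured wild-type cords, against 8.27, 8.35 and 8.30 in sham-operated EphA4 knockout and 8.23, 8.07 and 8.27 in sham-operated wild-type cords. Neither gene overlapped between injured and sham-operated arrays. Ctsd rose by 1.59 (SE 0.06, 3.01-fold, adjusted p = 8.62e-10) and Tpp1 by 0.74 (SE 0.07, adjusted p = 2.94e-06). Ctsa, which protects beta-galactosidase and neuraminidase in a complex, rose by 1.05 (SE 0.08).

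Ctse, an aspartic protease of endosomes in immune and epithelial cells, had the widest spread within a group (SD 1.09 in injured wild-type cords). It stood at 6.42, 6.66 and 6.52 in injured EphA4 knockout and 6.18, 4.15 and 4.49 in injured wild-type cords, against 4.90, 4.53 and 5.07 in sham-operated EphA4 knockout and 4.00, 3.96 and 4.42 in sham-operated wild-type cords. All injured EphA4 knockout arrays and injured wild-type replicate 1 were high, and the other injured wild-type arrays lay within the range of the sham-operated ones. The mean rise was 1.26 (SE 0.27, adjusted p = 0.00256), between 0.95 and 1.45 on leaving out each array.

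Among the glycosidases 7 of 9 rose, with a median change of 0.68. Gusb, which cleaves glucuronic acid from glycosaminoglycans, stood at 7.83, 7.92 and 7.63 in injured EphA4 knockout and 7.95, 7.88 and 8.11 in injured wild-type cords, against 5.62, 5.52 and 5.62 in sham-operated EphA4 knockout and 5.34, 5.66 and 5.55 in sham-operated wild-type cords. Hexa, the alpha subunit of the hexosaminidase that degrades ganglioside GM2, stood at 9.32, 9.22 and 9.07 in injured EphA4 knockout and 9.15, 9.40 and 9.58 in injured wild-type cords, against 7.58, 7.69 and 7.50 in sham-operated EphA4 knockout and 7.35, 7.54 and 7.46 in sham-operated wild-type cords. Every injured array was above every sham-operated one for both. Gusb rose by 2.33 (SE 0.08, 5.04-fold, adjusted p = 3.85e-10), with its 14 probesets between 0.05 and 3.38, and Hexa by 1.77 (SE 0.08, adjusted p = 5.13e-09). Naglu, which acts on heparan sulphate, rose by 1.74 (SE 0.12) and Man2b1, the alpha-mannosidase, by 1.07 (SE 0.09). Smaller rises were those of Gla, the alpha-galactosidase, by 0.68 (SE 0.10), Glb1, the beta-galactosidase, by 0.49 (SE 0.07), and Manba, the beta-mannosidase, by 0.39 (SE 0.07).

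The remaining glycosidases leaned the other way without passing. Neu1, the sialidase held in the complex with Ctsa and Glb1, stood at 6.78, 6.80 and 6.69 in injured EphA4 knockout and 6.90, 6.93 and 6.96 in injured wild-type cords, against 6.95, 7.21 and 6.95 in sham-operated EphA4 knockout and 6.93, 7.10 and 6.999 in sham-operated wild-type cords. Its arrays overlapped and its change was −0.18 (SE 0.07, adjusted p = 0.0629). Gaa, the acid alpha-glucosidase that degrades glycogen, had a change of −0.20 (SE 0.07, adjusted p = 0.0459), under the fold change of 1.2, and all 24 of its probesets had a mean change below 0.

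Of the lipid hydrolases and activator proteins 3 of 6 rose, with a median change of 0.21. Grn, progranulin, a secreted protein that lysosomes cut into granulins, stood at 10.55, 10.43 and 10.09 in injured EphA4 knockout and 10.30, 10.31 and 10.58 in injured wild-type cords, against 7.80, 7.98 and 8.01 in sham-operated EphA4 knockout and 7.89, 8.09 and 7.60 in sham-operated wild-type cords. Asah1, the acid ceramidase, stood at 9.41, 9.18 and 9.45 in injured EphA4 knockout and 9.57, 9.37 and 9.50 in injured wild-type cords, against 8.75, 9.02 and 8.91 in sham-operated EphA4 knockout and 8.72, 8.85 and 8.74 in sham-operated wild-type cords. The gap between injured and sham-operated arrays was wide for Grn and narrow for Asah1. Grn rose by 2.48 (SE 0.11, 5.59-fold, adjusted p = 1.96e-09) and Asah1 by 0.58 (SE 0.08, adjusted p = 6.57e-05). Psap, the precursor of the saposins that activate sphingolipid hydrolases and the partner of progranulin in transport to lysosomes, rose by 0.27 (SE 0.06).

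Ppt1, Smpd1 and Gm2a did not pass. Ppt1, the palmitoyl-protein thioesterase, stood at 8.55, 8.64 and 8.78 in injured EphA4 knockout and 8.76, 8.61 and 8.76 in injured wild-type cords, against 8.51, 8.65 and 8.80 in sham-operated EphA4 knockout and 8.61, 8.47 and 8.45 in sham-operated wild-type cords. These arrays overlapped and the change was 0.10 (SE 0.07, adjusted p = 0.338). Smpd1, the acid sphingomyelinase, had a change of 0.12 (SE 0.07) and Gm2a, the activator protein of hexosaminidase, one of 0.15 (SE 0.06).

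Of the membrane proteins 7 of 8 measured rose, with a median change of 0.77. Gpnmb stood at 10.52, 10.46 and 9.15 in injured EphA4 knockout and 10.16, 9.60 and 10.72 in injured wild-type cords, against 4.46, 4.39 and 4.83 in sham-operated EphA4 knockout and 4.70, 4.41 and 4.74 in sham-operated wild-type cords. Cd68, a scavenger receptor family member of macrophage lysosomes, stood at 10.82, 10.54 and 10.00 in injured EphA4 knockout and 10.60, 10.52 and 10.96 in injured wild-type cords, against 6.59, 6.87 and 6.76 in sham-operated EphA4 knockout and 6.47, 6.53 and 6.64 in sham-operated wild-type cords. The injured arrays were several log2 units above the sham-operated ones, and injured EphA4 knockout replicate 3 was the lowest of the injured arrays for both. Gpnmb rose by 5.51 (SE 0.24, 45.7-fold, adjusted p = 2.03e-09), rank 2 among all genes, with all 16 probesets separated, and Cd68 by 3.93 (SE 0.13, 15.2-fold, adjusted p = 2.83e-10), rank 9. Laptm5, a lysosomal protein of blood cells that lowers immune receptor levels, rose by 2.02 (SE 0.09).

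Lamp2, also a receptor of chaperone-mediated autophagy, rose by 0.81 (SE 0.08), Scarb2, the transport receptor of glucocerebrosidase, by 0.34 (SE 0.07), and Lamp1 by 0.27 (SE 0.06, 1.2-fold, at the threshold). Atp6v0d2, a subunit of the proton pump in osteoclasts and macrophages, rose by 0.73 (SE 0.18), and 6 of its 11 probesets were dim. Its call was lost without the lowest 25% of probesets (0.56, limma adjusted p = 0.069) and without the 4 arrays that stand apart (0.45, adjusted p = 0.0987). Mcoln1, whose promoter holds the CLEAR core at 72, 46 and 45 bases before the start, stood at 8.36, 8.45 and 8.29 in injured EphA4 knockout and 8.13, 8.50 and 8.57 in injured wild-type cords, against 8.51, 8.58 and 8.58 in sham-operated EphA4 knockout and 8.33, 8.75 and 8.53 in sham-operated wild-type cords. Its arrays overlapped and its change was −0.16 (SE 0.09, adjusted p = 0.204). Of the 9 genes with the CLEAR core 7 rose, with changes of −0.20 to 1.74 and a median of 0.68. Of the 22 measured genes whose windows lack it 17 rose, with changes of −0.21 to 5.51 and a median of 0.77. All 4 genes with the PU.1 site rose (median 1.95), as did 20 of the 27 without it (median 0.49). With the AP-1 site 4 of 5 rose (median 0.49), and without it 20 of 26 (median 0.77). Whether the sites have a part in these changes was not tested.

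**Figure D2:**
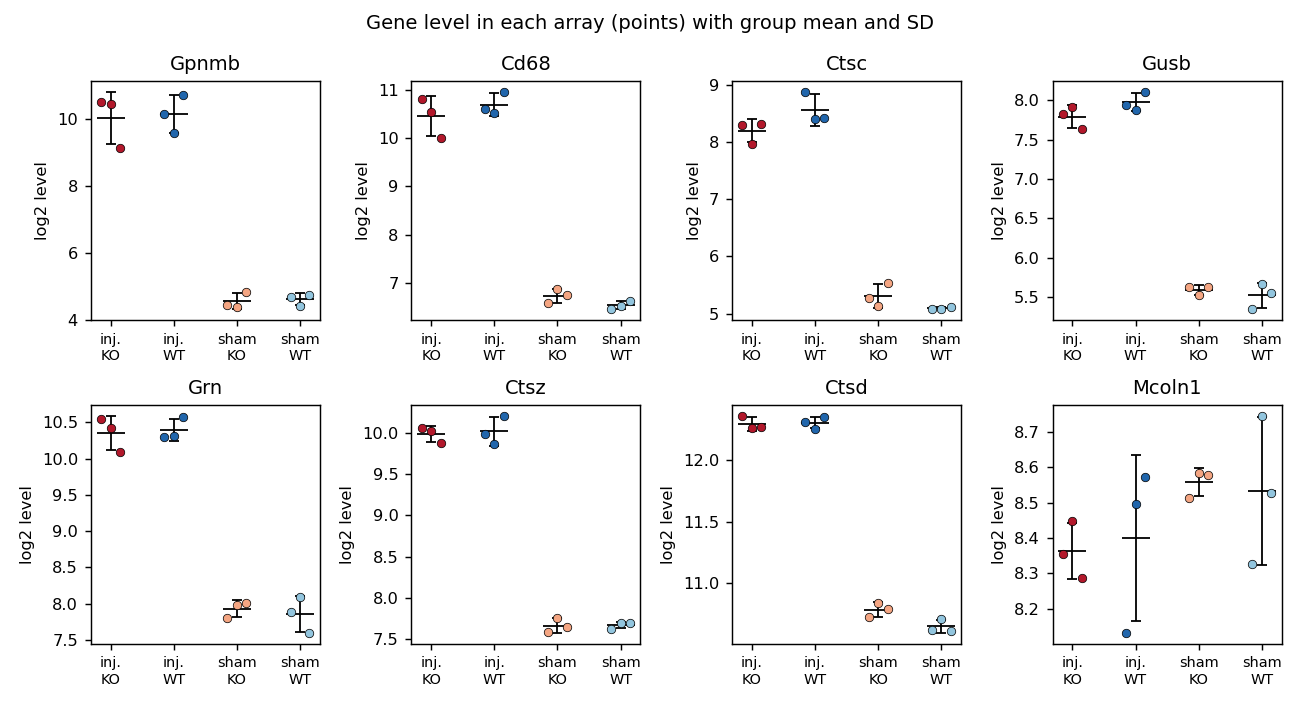
Log2 level (y axis) of 8 lysosomal genes in each array, as points, with the mean and SD of each group of 3; groups run from injured EphA4 knockout (inj. KO, dark red) and injured wild-type (inj. WT, dark blue) to sham-operated EphA4 knockout (light red) and sham-operated wild-type (light blue), and each panel has its own y scale that does not start at 0. Injured arrays lie above sham-operated arrays for every gene shown except Mcoln1, whose groups overlap.

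Within each genotype 26 genes rose and 0 fell in EphA4 knockout cords (8.98% of all genes rose and 11.5% fell), and 24 rose and 0 fell in wild-type cords (11.2% and 12.9%). With an unadjusted p under 0.05, Neu1 was lower in EphA4 knockout cords (19.4% of all genes) and Ctsf in wild-type cords (21.2%). The median change was 0.67 in EphA4 knockout and 0.82 in wild-type mice. Ctso, Ctse, Scarb2 and Atp6v0d2 passed in EphA4 knockout cords only, and Psap and Lamp1 in wild-type cords only, which by itself shows no difference between the genotypes. Gpnmb rose by 5.49 (SE 0.33) in EphA4 knockout and by 5.54 (SE 0.33) in wild-type mice, and Cd68 by 3.71 (SE 0.18) in EphA4 knockout and by 4.15 (SE 0.18) in wild-type mice. Within extraction batch 1, 32 of the 37 genes were higher in injured than in sham-operated EphA4 knockout arrays (50% of all genes) and 35 in wild-type arrays (39.9%), and within batch 2 these counts were 32 (37.9%) and 31 (38.7%), with 1 or 2 arrays per group in a batch.

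Other parts of the lysosomal system were followed through lists of further genes, beside all genes, of which 12.8% rose and 17% fell. Of 26 measured further lysosomal hydrolases 15 rose and 1 fell (median change 0.31). Acp5, an acid phosphatase of macrophages and osteoclasts, rose by 1.98 (SE 0.20) and Ctsl, a cysteine protease, by 1.61 (SE 0.11), and Ids, the iduronate sulphatase, fell by 0.34 (SE 0.08). Of 19 other membrane proteins and transporters 6 rose and 1 fell (median 0.21). Slc11a1, a metal transporter of macrophage phagosomes, rose by 2.42 (SE 0.12) and Slc15a3, a peptide and histidine transporter, by 2.28 (SE 0.11), and Abcb9, a peptide transporter, fell by 0.54 (SE 0.09).

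Most subunits of the pump that acidifies the lumen did not pass, and nor did most of all genes (11101 of 15808). Of 18 subunits and accessory proteins of the proton pump 3 rose and 1 fell, with a median of −0.19, beside 12.8% of all genes that rose and 17% that fell. Atp6v0d2, the pump subunit given above with a rise of 0.73, is not in this list. Tcirg1, the a3 subunit of macrophages and osteoclasts, rose by 1.47 (SE 0.11), Atp6v0e by 0.87 (SE 0.13) and Atp6v0a2 by 0.50 (SE 0.08), and Atp6v1g2, a subunit of neurons, fell by 0.34 (SE 0.06). With each array centred on its median gene level 3 rose and 6 fell, and 12 rose and 2 fell among the further hydrolases and 5 rose and 3 fell among the membrane proteins. Among all genes 1758 rose and 3635 fell with that centring. Of 18 genes that tag, sort and deliver the enzymes 2 rose and 1 fell (median −0.07), and 1 rose and 3 fell both with centring and with the median of the probesets as gene level. Igf2r, the large mannose 6-phosphate receptor, rose by 0.58 (SE 0.08) and Nagpa, which uncovers the mannose 6-phosphate tag, by 0.30 (SE 0.06), and Gga3, an adaptor of the sorting route, fell by 0.38 (SE 0.09). Of the 4 transcription factors of the MiT/TFE family 1 rose (median 0.19). Tfec, a member found in macrophages, rose by 0.34 (SE 0.10), and Tfe3 had a change of 0.20 (SE 0.08, adjusted p = 0.0594). Of 3 measured cystatins, inhibitors of cysteine cathepsins, 1 rose, Cstb by 0.74 (SE 0.12), and Cst6 had a change of −0.26 (SE 0.07) and an adjusted p of 0.0141, just under the fold change of 1.2.

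Markers of macrophages and microglia moved with these genes. All 14 rose, with a median of 2.29, and their mean level was 7.44 to 7.75 in injured EphA4 knockout and 7.74 to 8.08 in injured wild-type cords, against 5.36 to 5.53 in sham-operated EphA4 knockout and 5.30 to 5.50 in sham-operated wild-type cords. Of 8 homeostatic microglia markers 7 rose (median 1.04). Of 9 fibroblast markers 6 rose (median 1.42), with the highest levels of their treatment in injured EphA4 knockout replicate 1 (8.35) and sham-operated EphA4 knockout replicate 1 (6.37). Of 11 neuron markers 5 fell (median −0.25): Snap25, Syt1, Nefl, Eno2 and Slc17a6. Of 9 endothelial markers 5 rose (median 0.45), among them Cdh5 by 1.36 (SE 0.22), and their mean level was 6.15 to 6.82 in injured EphA4 knockout and 6.32 to 6.61 in injured wild-type cords, against 5.85 to 6.29 in sham-operated EphA4 knockout and 5.81 to 6.05 in sham-operated wild-type cords. Of 10 astrocyte markers 4 rose and 2 fell (median −0.08), with Gfap, the intermediate filament of reactive astrocytes, higher by 1.05 (SE 0.08), and of 8 oligodendrocyte markers 1 rose (Cldn11). Neutrophil markers rose in 1 case of 9 (Csf3r), osteoclast markers in 2 of 7 (Nfatc1 and Acp5, which is also among the further hydrolases), and those of T and natural killer cells (12), B cells (5), red cells (6) and skeletal muscle (8) in none. Of all genes 12.8% rose and 17% fell, so 1 rise in a list of 8 or 9 markers is near that share. How far each cell type contributed to the lysosomal changes was not tested.

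**Figure D3:**
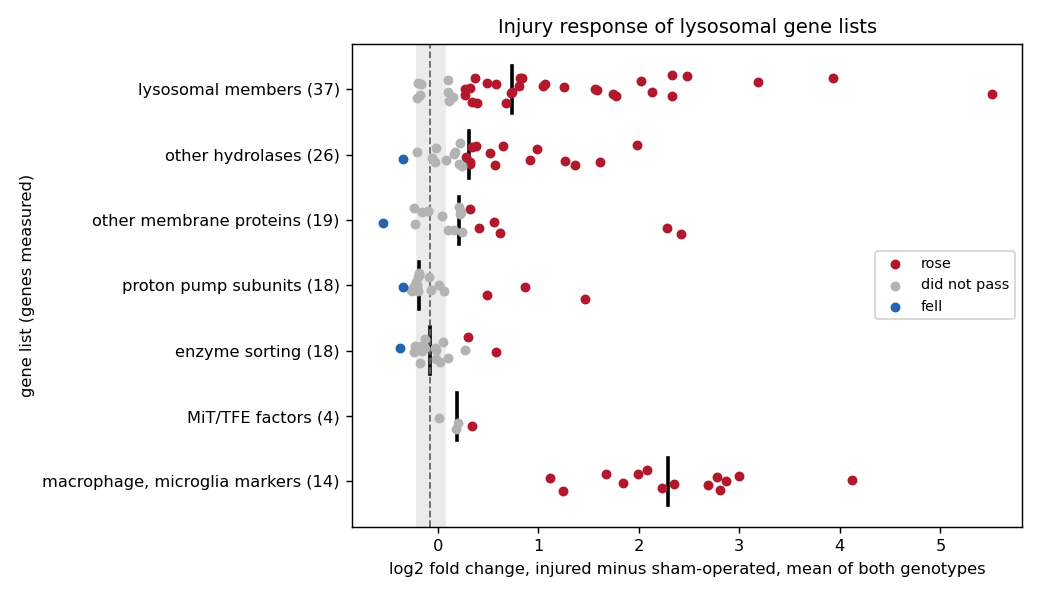
Log2 fold change of injured minus sham-operated cords, mean of both genotypes (x axis), for each gene of 7 lists (y axis, with the number measured), with the median of a list as a black bar; red genes rose, blue genes fell and grey genes did not pass. The dashed line and grey band give the median and the middle 50% of all genes, and the proton pump and sorting lists lie near the band while most lysosomal genes and all 14 macrophage and microglia markers lie to its right.

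The response to injury was compared between the genotypes as the difference of the changes, EphA4 knockout minus wild-type. With the thresholds of the study's methods, a 1.2-fold difference together with p below 0.01 before adjustment, 0 of the 37 genes passed (1.05% of all genes), and for 3 the unadjusted p was under 0.05 (5.59% of all genes). After adjustment 0 of all genes passed 0.05. The 3 were Ctsc with a difference of −0.58 (95% interval −1.04 to −0.12, limma adjusted p = 0.854), Ctsh with −0.50 (−0.87 to −0.13, adjusted p = 0.854) and Ctss with −0.35 (−0.68 to −0.02, adjusted p = 0.872). With the median of the probesets as gene level, the difference of Ctsh was 0.17. The difference was below 0 for 29 of the 37 genes, beside 49% of all genes, with a median of −0.13. After centring on array medians 26 were below 0 and after quantile normalization 24. The macrophage and microglia markers had a median difference of −0.34, with 12 of 14 below 0. For 33 genes the interval lay within a 2-fold difference either way, and for 22 within a 1.5-fold difference. Cd68 had a difference of −0.44 (−0.99 to 0.11) and Gpnmb of −0.05 (−1.07 to 0.96).

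In injured cords 1 of the 37 genes passed the same unadjusted thresholds between EphA4 knockout and wild-type mice, Ctse, which was higher (0.133% of all genes were called higher and 0.664% lower). It was also the 1 lysosomal gene with an unadjusted p under 0.05 there, against 4.04% of all genes. The difference was 1.59 on the log2 scale (SE 0.43, 95% interval 0.61 to 2.58, 3.02-fold, limma adjusted p = 0.998), the largest increase of all genes. All 11 probesets of Ctse were higher in EphA4 knockout cords. Within extraction batch 1 the difference was 2.34 and within batch 2, which holds injured wild-type replicate 1, it was 0.24. The injured EphA4 knockout arrays of Ctse all lay above the injured wild-type ones, as for 3.12% of all genes. Without that replicate, the array with raised skeletal muscle markers, it was 2.21 (limma adjusted p = 0.00693), and the values without each array ran between 1.2 and 2.21. The unadjusted threshold was missed in 7 of 18 alternatives. Among these were leaving out injured EphA4 knockout replicate 2 or 3 or injured wild-type replicate 2 or 3, the methods' t-test and leaving out the lowest 25% of probesets. Whether the muscle markers have a part in the level of Ctse in that array was not tested.

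In sham-operated cords Ctse was again the 1 gene called, with EphA4 knockout cords above wild-type ones by 0.71 (SE 0.17, 95% interval 0.32 to 1.09, limma adjusted p = 0.599), where 0.373% of all genes were called higher and 0.974% lower. With Ctsh and Atp6v0d2 it was 1 of 3 lysosomal genes whose unadjusted p was under 0.05 (6.29% of all genes). The arrays did not overlap, 10 of 11 probesets were higher, and the difference was 0.53 within batch 1 and 0.88 within batch 2. The call was lost without sham-operated EphA4 knockout replicate 3 or sham-operated wild-type replicate 2. The injury response of Ctse differed between the genotypes by 0.89 (−0.28 to 2.05), which did not pass. Ctse rose by 1.70 (SE 0.38, adjusted p = 0.00682) in EphA4 knockout mice and had a change of 0.81 (SE 0.38, adjusted p = 0.144) in wild-type mice, which was 0.19 without injured wild-type replicate 1 and 1.21 without replicate 2. The gene lies on chromosome 1, as does Epha4, and no other measured lysosomal gene lies there. Whether DNA linked to the knockout allele has a part in the genotype differences of Ctse, in injured or sham-operated cords, was not tested.

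**Figure D4:**
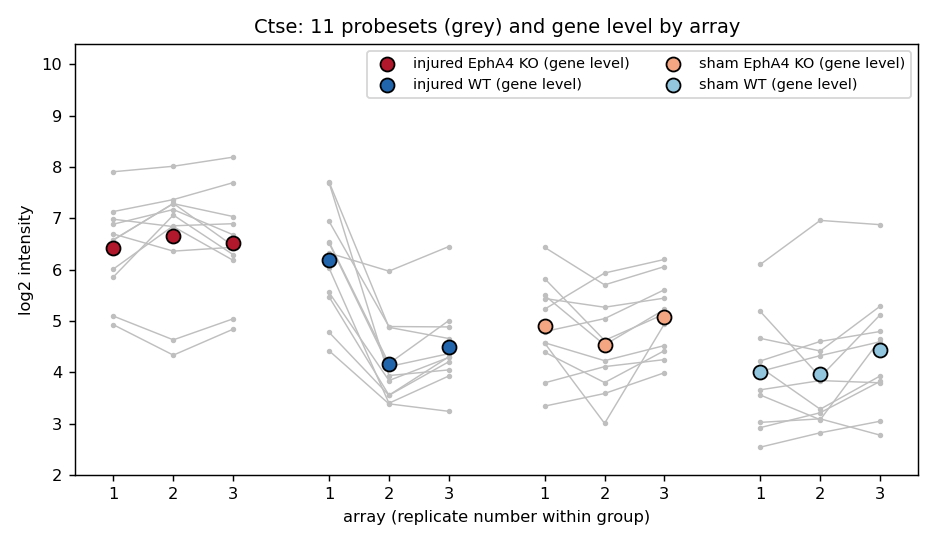
Log2 intensity (y axis) of the 11 probesets of Ctse, as grey points joined within a group, and the gene level, as a large point, in each of the 12 arrays (x axis, replicate number within injured EphA4 knockout, injured wild-type, sham-operated EphA4 knockout and sham-operated wild-type). Most probesets of injured wild-type replicate 1 (gene level 6.18) lie with the injured EphA4 knockout arrays (6.42 to 6.66), above the other injured wild-type arrays (4.15 and 4.49).

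None of the remaining lysosomal genes passed the thresholds between genotypes, in injured or sham-operated cords. In injured cords 27 of 37 had lower means in EphA4 knockout mice than in wild-type mice, with a median of −0.08, where 48.9% of all genes were lower. After centring on array medians 24 were lower (6353 of all 15808 genes), after quantile normalization 23 (7496), and with the median of the probesets 30 (7862). Within extraction batch 1, with 1 EphA4 knockout and 2 wild-type arrays, 8 genes were higher in the EphA4 knockout array (50.2% of all genes), and within batch 2, with 1 array of each genotype, the wild-type one being that with raised muscle markers, 25 were (47.2%). For Ctsc, Ctss, Neu1 and Lamp1 all 3 EphA4 knockout values were under the 3 wild-type values, an absence of overlap that held for 5.52% of all genes, and Ctsc had a difference of −0.36 (−0.74 to 0.01). In sham-operated cords 26 of 37 were higher in EphA4 knockout mice, with a median of 0.07 (52.6% of all genes were lower), and 29 and 27 were higher within batches 1 and 2 (50.6% and 48.4% of all genes). There 11 were lower with centring (8397 of all 15808 genes), 14 after quantile normalization (7810) and 13 with the median of the probesets (8194). Ctsh, at 6.42, 6.51 and 6.72 in sham-operated EphA4 knockout and 6.20, 6.14 and 6.28 in sham-operated wild-type cords, had a difference of 0.34 (0.10 to 0.59), which was −0.06 with the median of its probesets. Its arrays did not overlap, nor did those of Ctsc, Ctsd and Ctse (5.41% of all genes), or, in the lower direction, of Glb1, Scarb2 and Atp6v0d2 (6.33%).

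Atp6v0d2 varied widely among the injured EphA4 knockout arrays (SD 0.74). It stood at 4.79, 5.42 and 3.94 in injured EphA4 knockout and 4.40, 4.15 and 4.25 in injured wild-type cords, against 3.63, 3.51 and 3.78 in sham-operated EphA4 knockout and 3.87, 3.93 and 3.88 in sham-operated wild-type cords. Injured EphA4 knockout replicate 3 lay below the injured wild-type arrays and the other replicates above them. It rose by 1.08 (SE 0.26, adjusted p = 0.00976) in EphA4 knockout mice and had a change of 0.38 (SE 0.26, adjusted p = 0.319) in wild-type mice, and the difference between these, 0.70 (−0.08 to 1.49), did not pass. Of the 37 intervals for the genotype difference 35 lay within a 2-fold difference in injured and 36 in sham-operated cords, and 29 and 35 within a 1.5-fold difference.

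**Figure D5:**
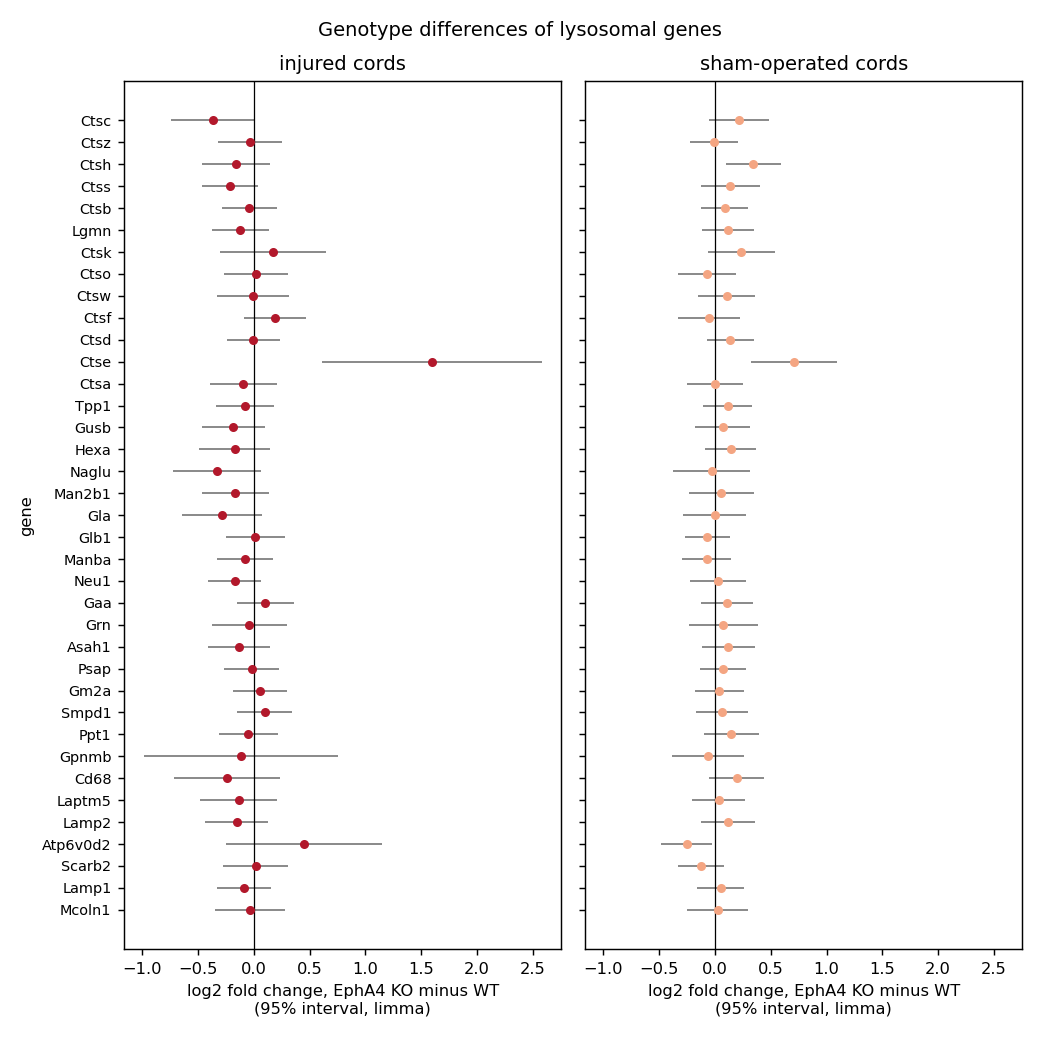
Log2 fold change of EphA4 knockout minus wild-type cords (x axis) with its 95% interval from limma, for each measured lysosomal gene (y axis), in injured (left) and sham-operated cords (right), 3 arrays per group. Ctse lies farthest from 0 in both panels, at 1.59 and 0.71.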

How the data were processed

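The authors hybridised RNA of each mouse to an Affymetrix exon array, and normalised the arrays by RMA. Core probesets were analysed in Partek, and the submitters' notes name mm9. The deposited values are log2 intensities, 1 per probeset, in 12 columns that were all mapped to a mouse by the labels (0 were not). They hold no counts, and precision is limited by the number of arrays. The 1331 probesets naming several genes and the 13317 naming none were left out. Symbols were updated to GRCm38.p6 (13745 stood, 2046 matched by a synonym, 39 did not match). The lysosomal genes and all lists were chosen with earlier results of these data known. Lists are described by counts and medians.

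Changes were fitted over all genes in R 4.3.3 with limma 3.58.1, statmod 1.5.0 and the data.table package (1.17.8). Injury and the difference of responses used all 12 arrays, with 4 groups sharing 1 estimate of the spread, and genotype differences used the 6 arrays of 1 treatment, as in the study's methods. Injury was called at a Benjamini-Hochberg adjusted p under 0.05, genotype at an unadjusted p under 0.01, both at a fold change of at least 1.2. The labels call the mice biological replicates, so the p-values measure the spread between mice. Extraction batches 1 and 2 hold all 4 groups, while batch 3 is sham-operated EphA4 knockout replicate 1 alone and batch 4 is replicate 3 of the injured EphA4 knockout mice alone. Within-batch values leave these 2 arrays out, and so do the fits with batch as a term, which therefore differ from the main fits in their arrays too. The fits were tested on simulated data with 200 changed genes. At 1.5-fold and an adjusted p under 0.05 they recovered 86% for the mean injury response, 45% in EphA4 knockout and 48.5% in wild-type mice. The deposited data had far more genes called after injury. These were 1419 higher and 1819 lower in EphA4 knockout mice, and 1771 higher and 2033 lower in wild-type mice. An adjusted p is harder to pass when few genes change, so the injury recoveries do not give the power in the deposited data. At an unadjusted p under 0.01 recovery was 58% for the difference of responses, 87% between genotypes in injured and 83% in sham-operated cords. These values are not comparable with the injury recoveries, which used an adjusted p. The unadjusted thresholds also called 154, 151 and 157 unchanged genes in these last 3 comparisons.

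Every measured lysosomal gene is named. Values of all arrays are given for the 2 genes of each role with the largest and the 1 with the smallest change after injury and for those passing a genotype comparison. Atp6v0d2, with all arrays, and Ctsh, with the sham-operated arrays only, were added after their values were seen. From each other list the 2 largest changes are named, and Ids, Abcb9, Atp6v1g2, Atp6v0a2 and Nagpa, like the single markers of other cells, were chosen after their values were seen. Alternatives were the median of probesets, scaling, filters on dim genes or probesets, sex, batch or replicate number as a term, array weights, other thresholds, the methods' t-test and leaving out arrays. The sex term used the labels, with sham-operated EphA4 knockout replicate 2 kept as male.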

Additional observations from a re-analysis of the deposited data

How the results depend on the processing

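The counts of genes that rose after injury stayed within 25 to 29 for the mean of both genotypes, 18 to 28 in EphA4 knockout and 21 to 26 in wild-type mice under all alternatives run (29, 26 and 24 as reported), and within 26 to 29, 24 to 26 and 21 to 25 on leaving out each array. At most 1, 1 and 2 genes were called lower under any of these, and those were Ctsf, Neu1 or Gaa. Leaving out the 4 arrays that stand apart together, an alternative chosen after seeing the data, gave 25, 18 and 24. Injured EphA4 knockout replicate 3 was not among these 4. It had the lowest mean of the injured arrays for the lysosomal genes (8.70) and for the macrophage and microglia markers (7.44). Array centring moved the median of all genes from −0.08 to −0.13 and the split of all calls from 2026 higher and 2681 lower to 1758 higher and 3635 lower, and there Ctsk, Ctso, Psap and Lamp1 lost their calls and Ctsf was called lower. Lamp1 also lost its call without injured EphA4 knockout replicate 3, injured wild-type replicate 3, sham-operated EphA4 knockout replicate 1 or sham-operated wild-type replicate 1 or 3, and Psap without injured EphA4 knockout replicate 1, injured wild-type replicate 3 or sham-operated wild-type replicate 3, both at a fold change next to 1.2.

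Genotype counts moved with small changes. For the difference of responses, 0 as reported became 1 with the median of probesets (Ctsc, −1.05), 3 with batch as a term and 1 without the 4 arrays, and 0 to 2 without each array. In injured cords 1 became 2 with the median of probesets or batch as a term, 0 without the lowest 25% of probesets, with the methods' t-test (83 genes called in all) or at an adjusted p, and 0 to 1 without each array. Without injured EphA4 knockout replicate 3 the count stayed at 1, but Ctse missed the threshold there and another lysosomal gene was called. In sham-operated cords 1 became 0 with the median of probesets, the methods' t-test (92 genes), all 12 arrays in 1 fit or an adjusted p, and 0 to 2 without each array. The replicate numbers did not pair the mice (5 of 18 pairs correlated above 0.1), and the replicate block gave 28, 26 and 24 genes after injury, 0 for the difference of responses and 1 for each genotype comparison.

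Some changes turned sign. Ctsw, averaged over genotypes, was −0.065 without the 4 arrays. In EphA4 knockout mice Ctsw was −0.0077 with array weights, −0.25 without the 4 arrays, −0.084 without injured EphA4 knockout replicate 2 and −0.017 without sham-operated EphA4 knockout replicate 2 (−0.084 to 0.14 without each array), and Ppt1 was −0.038 with centring, −0.13 with batch as a term, −0.057 with array weights, −0.13 without the 4 arrays, −0.058 without injured EphA4 knockout replicate 3 and −0.068 without sham-operated EphA4 knockout replicate 1 (−0.068 to 0.076 without each array). Mcoln1 in wild-type mice was 0.0013 without injured wild-type replicate 1 and without the 4 arrays (−0.24 to 0.0013 without each array). With the median of probesets Ctsh had a difference of responses of 0.17 (−0.50 as reported) and a sham-operated genotype difference of −0.06 (0.34 as reported). The causes were not tested. Ctsw is among the dimmest 25% of genes, and 3 arrays per group limit what can be detected.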
